A study of Macaca mulatta with 8 samples.

Results

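The genes described here make sterols and fatty acids or move and store them. They were a list of 38 gene symbols, and a gene was taken when its symbol stood in the count files. Of the 38, 35 were in the files, out of 35432 genes in all, of which 23929 carried a symbol. The other 3, CYP51A1, EBP and ACAT2, were not analyzed here. The 35 comprised 14 sterol synthesis genes, 5 sterol regulators, 8 fatty acid synthesis genes and 8 efflux and storage genes, a group that also held the nuclear receptors NR1H3 and NR1H2. All 35 passed the filter on low counts in the fit of all 4 donors.

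Cholesterol is built from acetyl-CoA through mevalonate, isoprenoids, squalene and lanosterol. When membrane sterol is low, SCAP carries the transcription factors SREBF1 and SREBF2 out of the endoplasmic reticulum to be cut and activated, and INSIG1 holds SCAP back when sterol is plentiful. When sterol is in excess, oxysterols activate the nuclear receptors NR1H3 and NR1H2, known as liver X receptors, whose targets export cholesterol (ABCA1, ABCG1, APOE) and degrade lipoprotein receptors (MYLIP). Microglia take up cholesterol-rich myelin debris, and they store surplus sterol and fatty acid as esters in lipid droplets coated by PLIN2.

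Primary microglia, the resident macrophages of the brain, came from the subcortical white matter of 4 rhesus macaques: the males R07110 (13 years) and R12016 (9 years) and the females R02046 (19 years) and R14143 (6 years). The cells stayed in medium with serum and M-CSF, a growth factor of macrophages, for 8 days. On day 7 they received 10 µg/mL uLPS, an ultrapure lipopolysaccharide that engages TLR4, for 16 h, either alone or after 1 h with 5 µM MRS2578, which blocks the UDP receptor P2RY6. Each donor gave 1 library for uLPS and 1 for uLPS+MRS2578, so that the 8 libraries form 4 pairs and n is the number of animals. All libraries were exposed to uLPS, hence the comparison concerns MRS2578 within uLPS-exposed cells. The study's methods state that solvent (DMSO) controls accompanied the assays with MRS2578, and the labels of the libraries with uLPS alone do not mention solvent.

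The total count per library ran from 9231109 to 32790348, and the genes of the list took 0.289% to 0.513% of it. A gene with 3 counts, the limit that a count of 0 allows, lay between 0.0915 and 0.325 CPM (counts scaled to a fixed library size), a limit that covers counting error only. Microglia markers summed to between 8660 and 11893 CPM per library, of which CD14 alone gave 4768 to 7646 CPM. By contrast, TMEM119 stayed at or below 0.316 CPM, CX3CR1 at or below 2.21 CPM and P2RY12 between 5.70 and 13.3 CPM. Lymphocyte markers summed to at most 0.443 CPM, with NKG7 at 0 in all libraries, and neuron markers to at most 1.07 CPM. Of 8 oligodendrocyte markers, 6 stayed under 1 CPM in all libraries and the list summed to between 224 and 407 CPM, mostly from CNP and MBP. Astrocyte markers summed to between 45.9 and 151 CPM, and endothelial and mural markers to between 157 and 295 CPM. The latter came mostly from PECAM1 (82.5 to 213 CPM) and VWF (41.7 to 121 CPM), with CLDN5 and CDH5 at or below 0.202 CPM. Fibroblast markers, which include collagen genes, summed to between 90.2 and 1191 CPM. They were 1191 CPM with uLPS and 430.4 CPM with uLPS+MRS2578 in R14143, the widest step of any pair. The other pairs went the other way, from 149.7 to 232.4 CPM in R07110 and from 90.2 to 203.5 CPM in R12016. R02046 as labelled went from 368.5 to 529.6 CPM.

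The labels of 1 donor are in doubt. The CPM values that the study lists for its called genes match each of its 8 columns to exactly 1 deposited library, with a ratio that varied by at most 1.42e-06 of its mean over the genes compared, against 0.361 or more for the next library. In 6 columns the condition is that of the label, whereas the 2 libraries of R02046 carry the opposite conditions. The results are therefore given with the deposited labels, with the 2 libraries of R02046 exchanged, and without R02046.

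Promoters of 3 of the genes are shown first, since sterol synthesis genes share a feature there that the list was not chosen on. Each line is the 250 bases before the RefSeq start in the Mmul_10 genome, on the strand of the gene. Capitals mark CCAAT or its complement ATTGG, the box bound by the factor NF-Y that SREBF proteins work with, and in HMGCS1 also a sterol regulatory element, TCACNCCAC.
HMGCS1 (chr6:43321488-43321737, minus strand): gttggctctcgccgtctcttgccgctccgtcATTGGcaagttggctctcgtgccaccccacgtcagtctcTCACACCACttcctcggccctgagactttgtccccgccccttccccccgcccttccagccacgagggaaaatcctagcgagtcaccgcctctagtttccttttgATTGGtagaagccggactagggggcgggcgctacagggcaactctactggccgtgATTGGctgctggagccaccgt
LSS (chr3:555835-556084, plus strand): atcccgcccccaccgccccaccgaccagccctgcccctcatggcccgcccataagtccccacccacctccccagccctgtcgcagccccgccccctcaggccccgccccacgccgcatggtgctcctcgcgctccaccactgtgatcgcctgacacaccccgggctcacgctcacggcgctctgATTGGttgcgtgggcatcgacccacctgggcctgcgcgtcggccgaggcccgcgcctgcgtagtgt
INSIG1 (chr3:181310705-181310954, plus strand): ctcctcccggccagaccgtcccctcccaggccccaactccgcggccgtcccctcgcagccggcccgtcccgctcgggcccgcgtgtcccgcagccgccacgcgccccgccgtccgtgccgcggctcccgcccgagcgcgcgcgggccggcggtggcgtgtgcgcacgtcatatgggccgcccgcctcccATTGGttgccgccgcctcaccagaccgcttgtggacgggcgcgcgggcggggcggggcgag

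The 3 windows come from a synthesis enzyme at the head of the pathway (HMGCS1), a later one (LSS) and a regulator (INSIG1). PLIN2, HSD17B7 and CYP51A1 had no entry by that symbol in the annotation used, so no window of theirs was searched. On both strands, CCAAT was in 31.0% of the 20782 windows of protein-coding genes and in 20 of the 35 windows of listed genes. Of 15 sterol synthesis windows, 13 held it, HMGCS1 3 times, and the exceptions, EBP and ACAT2, were genes without counts here. It was in 2 of 5 windows of sterol regulators, 1 of 8 of fatty acid synthesis genes and 4 of 7 of efflux and storage genes. The element TCACNCCAC was in 1.47% of all windows and in those of HMGCS1 and FASN. The exact repeat of the liver X receptor element (DR4: AGGTCA, 4 bases of any kind, AGGTCA) was in 1 window of all and in none of the 35 windows of listed genes. The exact PPAR element (DR1: the same repeat with 1 base between) was in 4 windows of all and in none of those 35, which do not include PLIN2. Both exact repeats were too rare over all windows for their absence to set the listed windows apart. The E-box CACGTG was in 6.45% of all windows and in 5 of the listed ones (SC5D, DHCR7, SCAP, FASN and ABCA1). These letters are a description of sequence, and no match says only that they are not in this window.

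The list was assembled to set sterol synthesis against efflux and storage in the within-donor difference. The median absolute difference over the 14 sterol synthesis genes was 0.09, 0.22, 0.20 and 0.23 in R07110, R12016, R02046 and R14143. Over all genes tested it was 0.19, 0.28, 0.25 and 0.23. LSS in R12016 and SQLE in R14143 differed most among the synthesis genes. In the 2 males R07110 and R12016, the efflux and storage genes ABCG1, MYLIP and PLIN2 held the widest differences of the list. In R02046 as labelled, ABCG1 (-3.17, from 8 counts against 0) and SCD (-1.22) did so. In R14143 these were ELOVL6 (1.71) and FADS2 (-1.17). SCD, ELOVL6 and FADS2 are fatty acid synthesis genes. On the log2 CPM scale, the median difference over the 14 sterol synthesis genes (uLPS+MRS2578 minus uLPS) was -0.05, -0.10, -0.16 and 0.00 for R07110, R12016, R02046 and R14143. The median over the 8 efflux and storage genes was 0.54, 0.29, -0.25 and 0.03 in the same order. The medians over all genes tested lay between -0.02 and 0.00. The efflux and storage median was thus above that of synthesis in R07110, R12016 and, barely, R14143 and below it in R02046 as labelled. With the libraries of R02046 exchanged, its differences change sign and the efflux and storage median is the higher there too.

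**Figure D1:**
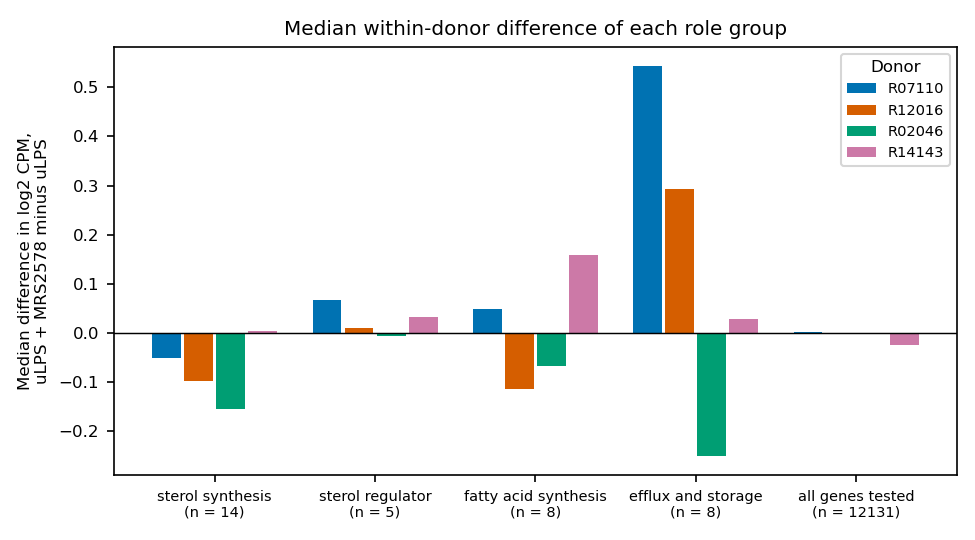
Median within-donor difference in log2 CPM (uLPS+MRS2578 minus uLPS, deposited labels) for each group of genes and for all genes tested, with 1 bar per donor. The efflux and storage bars stand at 0.54 in R07110 and 0.29 in R12016 and at -0.25 in R02046, while the sterol synthesis bars stay between -0.16 and 0.00.

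No gene of the list passed the test with the deposited labels. At an adjusted p of 0.05, edgeR's quasi-likelihood fit, in which each donor is a block, called 0 of the 35, beside 0.0% of all 12131 genes tested. DESeq2 called 0 of the 35 as well, beside 0.00824% of all genes, and so did edgeR's likelihood ratio test, beside 0.0412%. At an unadjusted p of 0.05, 3 were higher (INSIG1, ABCG1 and MYLIP), beside 2.7% of all genes, and 0 were lower, beside 2.44%, which together make 5.14%. DESeq2 and the likelihood ratio test gave INSIG1 and MYLIP higher and LSS lower at that level, beside 4.9% and 5.35% of all genes. With the libraries of R02046 exchanged, 1 of the 35 was called, ABCG1, which rose, beside 0.618% of all genes, of which 0.0989% rose and 0.519% fell. At an unadjusted p of 0.05 under the exchange, FDFT1, INSIG1, ELOVL6, ABCG1, MYLIP and PLIN2 were higher, 6 of 35 beside 6.86%, and 0 were lower, beside 9.59%. Without R02046, 0 of the 34 genes tested were called, beside 0.0% of all genes, and 6 had an unadjusted p under 0.05, beside 13.6%. These were INSIG1, ELOVL6, ABCG1, MYLIP and PLIN2, which were higher, beside 5.73%, and LSS, which was lower, beside 7.86%.

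Median fitted log2 fold changes of the groups were small beside the spread of their members. For sterol synthesis the median was -0.12 with the deposited labels, -0.07 without R02046 and 0.00 with the exchange. For efflux and storage it was 0.01, 0.11 (over 7 genes, without NR1H3) and 0.31. With the deposited labels, leaving out R07110, R12016 or R14143 gave -0.01, 0.24 (over 7 genes) and 0.17 for this group. Sterol regulators gave -0.04, -0.06 and -0.04, and fatty acid synthesis genes 0.08, 0.03 and -0.04, against -0.01, 0.00 and 0.00 over all genes tested. With the deposited labels the fitted values of sterol synthesis genes ran from -0.45 to 0.19, and those of efflux and storage genes from -0.17 to 3.78.

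As labelled, genes of the list kept 1 direction in all 4 donors about as often as all genes tested did. With the deposited labels HMGCS1 and INSIG1 were higher in all 4 donors, 2 of 35 beside 6.43% of all genes, and LSS, PMVK and SC5D were lower in all 4, 3 of 35 beside 6.49%. With the exchange, 5 were higher in all 4 (FDFT1, ELOVL5, ELOVL6, ABCG1 and PLIN2) beside 10.6%, and 1, IDI1, was lower beside 13.2%. In R07110, R12016 and R14143 alone, 7 of 35 were higher in all 3 beside 17.0% and 4 were lower beside 19.8%. Among the 14 sterol synthesis genes, 2 were higher in all 3 (HMGCS1 and FDFT1) and 4 lower (IDI1, LSS, PMVK and SC5D).

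**Figure D2:**
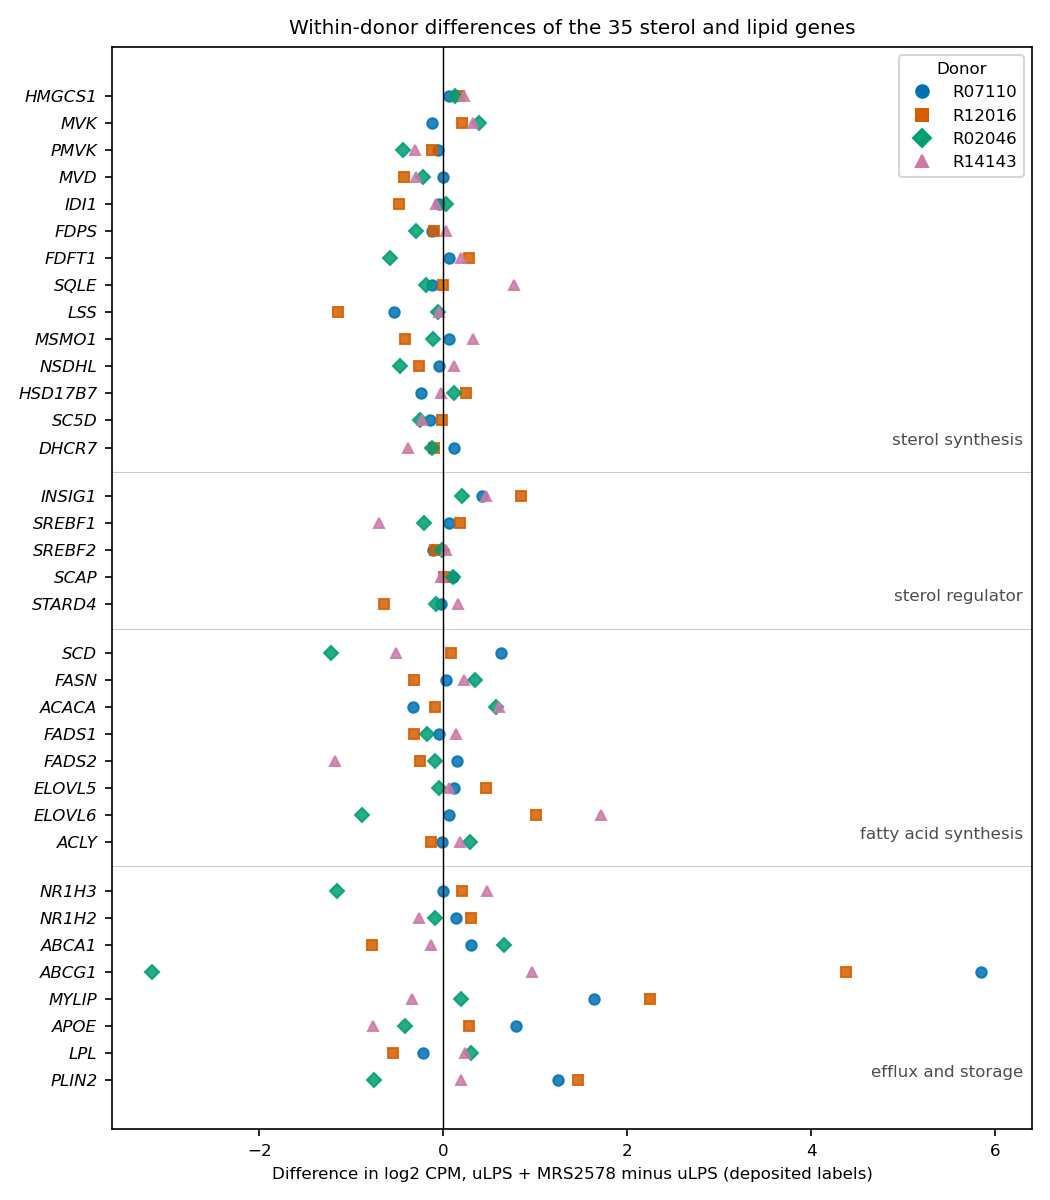
Difference in log2 CPM between uLPS+MRS2578 and uLPS (deposited labels) for each of the 35 genes, with 1 symbol per donor, grouped by role. Sterol synthesis symbols lie between -1.14 (LSS in R12016) and 0.77 (SQLE in R14143), while ABCG1 spans from -3.17 in R02046 to 5.85 in R07110.

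ABCG1, an ATP-binding cassette transporter that exports cholesterol to lipoproteins, showed the widest difference of the list (ENSMMUG00000018058). With uLPS it stood at 0.335, 2.68, 0.854 and 0.864 CPM in R07110, R12016, R02046 and R14143, and with uLPS+MRS2578 at 25.4, 57.9, 0 and 1.79 CPM. In counts, these were 11, 42, 8 and 17 with uLPS and 627, 915, 0 and 32 with uLPS+MRS2578. The libraries of both males with MRS2578 were far above every other library, 75.7-fold and 21.6-fold above their own uLPS library, and R14143 was 2.07-fold higher. R02046 went the other way as labelled, 3.89-fold lower with MRS2578 when its 0 is replaced by 3 counts in that library. That value leaves out the counting error of its 8 counts with uLPS. Means were 1.18 ± 1.03 CPM with uLPS and 21.3 ± 27.0 CPM with uLPS+MRS2578 (SD, n = 4), and the ranges of the conditions overlapped.

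The fitted log2 fold change of ABCG1 was 3.78 ± 1.26 (SE) with the deposited labels, with an adjusted p of 0.878. With the same labels it was 2.52 with the likelihood ratio test, 2.48 with DESeq2 and 2.39 without R07110. With the libraries of R02046 exchanged it was 4.46 ± 0.61 with an adjusted p of 0.0328, and the gene was higher with MRS2578 in 4 of 4 donors. Without R02046 it was 4.38 ± 0.75 with an adjusted p of 0.140. Over the alternatives with the exchange, the adjusted p ran from 7.52e-05 with the likelihood ratio test to 0.829 without the donor block. The call with the exchange was lost when R07110 (adjusted p = 0.259) or R12016 (adjusted p = 0.133) was left out and with edgeR's earlier quasi-likelihood estimation (adjusted p = 0.0649), and it held without R14143 (adjusted p = 0.000837). With the deposited labels the adjusted p was at least 0.140 in every fit that was run.

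MYLIP encodes a ubiquitin ligase that marks lipoprotein receptors for degradation and is a known liver X receptor target. It stood at 3.20, 5.62, 2.35 and 4.83 CPM with uLPS and at 10.2, 27.1, 2.71 and 3.80 CPM with uLPS+MRS2578, in the same order of donors. Both males were again the high libraries, 3.19-fold and 4.82-fold above their uLPS libraries, whereas R02046 and R14143 stayed within the range with uLPS. Its log2 fold change was 1.09 ± 0.45 (SE) with the deposited labels (adjusted p = 0.878), 1.12 ± 0.43 with the exchange (adjusted p = 0.256) and 1.304 ± 0.48 without R02046 (adjusted p = 0.329). Over the fits with the exchange its adjusted p ran from 0.0353, without R14143, to 0.867.

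PLIN2, which coats lipid droplets, differed in the same donors but from a much higher level. It stood at 62.8, 97.7, 129 and 73.2 CPM with uLPS and at 149, 269.6, 76.4 and 83.6 CPM with uLPS+MRS2578. The libraries of R07110 and R12016 with MRS2578 lay above all uLPS libraries, 2.37-fold and 2.76-fold above their own, R14143 was 1.14-fold higher, and R02046 as labelled was lower at 0.594 of its uLPS library. In log2 terms the fitted difference was 0.55 ± 0.36 (SE) with the deposited labels (adjusted p = 0.881), 0.92 ± 0.19 with the exchange (adjusted p = 0.0840) and 0.97 ± 0.25 without R02046 (adjusted p = 0.214). PLIN2 was called with the exchange by the likelihood ratio test (adjusted p = 0.000951), by DESeq2 (adjusted p = 0.000424) and without R14143 (adjusted p = 0.00722), and its adjusted p reached 0.829 without the donor block.

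ABCG1, MYLIP and PLIN2 were the 3 genes of the list that were higher by over 1 on the log2 scale in both R07110 and R12016, beside 1.91% of all genes, and none was lower by as much in both, beside 0.742%. This limit was chosen after the values were seen. All 3 belong to the efflux and storage group. In R14143 their differences were 0.97, -0.34 and 0.19, well below those of the males. With 2 males and 2 females, sex cannot be told apart from other differences between these animals.

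**Figure D3:**
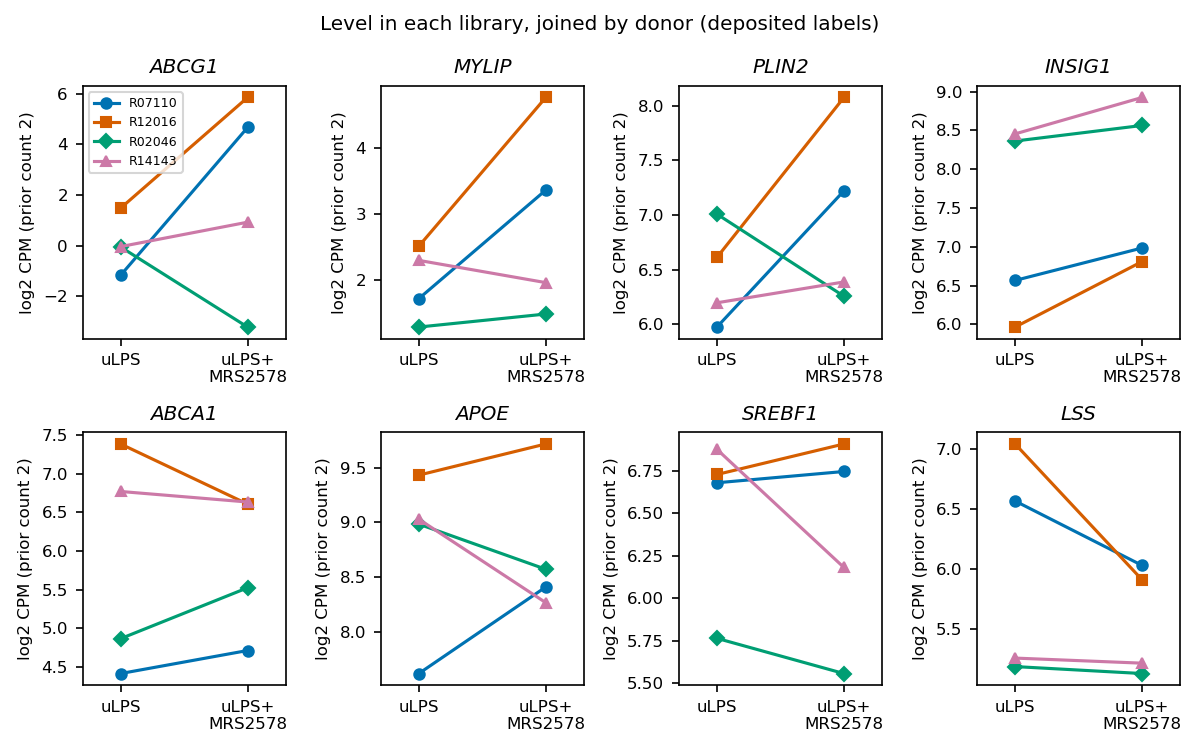
Level in log2 CPM (prior count 2) of 8 genes in the 8 libraries under the deposited labels, with the uLPS and the uLPS+MRS2578 library of a donor joined by a line. ABCG1, MYLIP and PLIN2 are higher with MRS2578 in R07110 and R12016, ABCG1 and PLIN2 are lower in R02046 as labelled, and INSIG1 is higher in each donor, by 0.20 to 0.84.

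The other efflux and storage genes differed by less in the males. ABCA1, the transporter that loads cholesterol onto apolipoproteins and a classical target of the same receptors as ABCG1, stood at 21.2, 167, 29.0 and 109 CPM with uLPS and at 26.1, 97.3, 45.9 and 99.1 CPM with uLPS+MRS2578. It was higher in R07110 and in R02046 as labelled and lower in R12016 and R14143, and donors spanned 7.87-fold with uLPS alone. Its log2 fold change was 0.00 ± 0.22 (SE) with the deposited labels (adjusted p = 0.999), -0.32 ± 0.17 with the exchange (adjusted p = 0.411) and -0.21 ± 0.20 without R02046 (adjusted p = 0.711).

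APOE, the main apolipoprotein of the brain, was at 197, 689.97, 506 and 523 CPM with uLPS and at 341, 839.8, 381 and 309 CPM with uLPS+MRS2578. It was higher in both males and lower in both females as labelled, by 0.79 and 0.28 against -0.41 and -0.76 on the log2 scale. The log2 fold change was -0.03 ± 0.25 (SE) with the deposited labels (adjusted p = 0.993), 0.19 ± 0.22 with the exchange (adjusted p = 0.735) and 0.11 ± 0.29 without R02046 (adjusted p = 0.907). With the exchange and without R14143 it was 0.49 and was called (adjusted p = 0.0419). In R14143, where APOE was lowest with MRS2578 relative to uLPS, fibroblast and astrocyte markers also differed most between the libraries. Astrocyte markers there summed to 150.5 CPM with uLPS and 67.7 CPM with uLPS+MRS2578. The part of either cell type in the APOE difference was not tested.

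LPL, which releases fatty acids from lipoproteins, ran from 427 CPM in R14143 to 2528 CPM in R12016 with uLPS, with 1548 CPM in R07110 and 1279.6 CPM in R02046. With uLPS+MRS2578 it was at 1329, 1739, 1575 and 505 CPM in the order R07110, R12016, R02046, R14143, lower in the males and higher in the females as labelled. Its log2 fold change was -0.05 ± 0.18 (SE) with the deposited labels (adjusted p = 0.974), -0.21 ± 0.14 with the exchange (adjusted p = 0.502) and -0.17 ± 0.18 without R02046 (adjusted p = 0.730).

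The receptors themselves were measured at very different levels. NR1H2 lay between 59.2 and 79.8 CPM in all libraries, with a log2 fold change of 0.02 ± 0.12 (SE) as labelled, 0.07 ± 0.11 with the exchange and 0.06 ± 0.13 without R02046. NR1H3 had only 1 to 34 counts per library (0.0508 to 2.15 CPM), too few to show a moderate difference at this depth. Without R02046 it did not pass the filter on low counts.

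INSIG1, the sterol sensor that retains SCAP, had the smallest unadjusted p of the list with the deposited labels, 0.00589. It stood at 94.6, 62.4, 329 and 351 CPM with uLPS and at 126, 112, 378 and 486 CPM with uLPS+MRS2578. It was higher with MRS2578 in each donor, by 0.42, 0.84, 0.20 and 0.47 on the log2 scale, but donors spanned 5.63-fold with uLPS alone and the ranges of the conditions overlapped. In the fit, its log2 fold change was 0.48 ± 0.12 (SE) with the deposited labels (adjusted p = 0.878), 0.38 ± 0.15 with the exchange (adjusted p = 0.275) and 0.57 ± 0.12 without R02046 (adjusted p = 0.166). With the exchange, 3 of 4 donors were higher. Over all fits that were run its adjusted p was at least 0.166.

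SREBF2, the transcription factor that drives sterol synthesis genes, was nearly level. It stood at 190.5, 179, 126 and 127 CPM with uLPS and at 176, 169, 125 and 130.4 CPM with uLPS+MRS2578. No pair differed by more than 0.11 on the log2 scale, and the log2 fold change was -0.04 ± 0.09 (SE) with the deposited labels (adjusted p = 0.955), -0.04 ± 0.08 with the exchange (adjusted p = 0.847) and -0.06 ± 0.09 without R02046 (adjusted p = 0.847).

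SREBF1, whose product drives mainly fatty acid synthesis genes, stood at 102, 106, 54.2 and 117 CPM with uLPS and at 107, 119.9, 47.0 and 72.4 CPM with uLPS+MRS2578. R14143 was lower by 0.69 on the log2 scale and the other pairs differed by 0.21 or less. Its log2 fold change was -0.16 ± 0.15 (SE) with the deposited labels (adjusted p = 0.906), -0.06 ± 0.15 with the exchange and -0.15 ± 0.18 without R02046. STARD4, which carries cholesterol between membranes, stood at 17.3, 51.9, 11.2 and 18.5 CPM with uLPS and at 17.0, 33.2, 10.6 and 20.8 CPM with uLPS+MRS2578. R12016 was lower by 0.64 and the other pairs differed by 0.16 or less, and the log2 fold change was -0.15 ± 0.16 (SE), -0.13 ± 0.16 with the exchange and -0.17 ± 0.18 without R02046. SCAP, the escort of the SREBF proteins, was at 0.05 ± 0.09 (SE) with the deposited labels, 0.00 ± 0.08 with the exchange and 0.03 ± 0.09 without R02046.

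Among the sterol synthesis genes, LSS, the cyclase that closes squalene epoxide into lanosterol, differed most. It stood at 94.8, 132, 36.2 and 38.01 CPM with uLPS and at 65.2, 59.96, 34.7 and 36.9 CPM with uLPS+MRS2578. The males were well above the females with uLPS and were lower with MRS2578, at 0.688 and 0.454 of their uLPS libraries, while the females were nearly level at 0.960 and 0.971. The fitted log2 fold change was -0.45 ± 0.19 (SE) with the deposited labels (adjusted p = 0.878), -0.43 ± 0.19 with the exchange (adjusted p = 0.308) and -0.58 ± 0.21 without R02046 (adjusted p = 0.320).

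MVD, which decarboxylates mevalonate diphosphate, stood at 42.0, 58.8, 36.8 and 33.5 CPM with uLPS and at 42.1, 43.8, 31.6 and 27.3 CPM with uLPS+MRS2578. It was lower in 3 donors and level in R07110, with a log2 fold change of -0.23 ± 0.11 (SE) with the deposited labels, -0.13 ± 0.13 with the exchange and -0.24 ± 0.12 without R02046. PMVK, the kinase 1 step before MVD, stood at 29.5, 27.9, 43.8 and 33.7 CPM with uLPS and at 28.4, 25.6, 32.3 and 27.2 CPM with uLPS+MRS2578. Its widest pair was R02046 (-0.44 on the log2 scale), and the log2 fold change was -0.23 ± 0.11 (SE) with the deposited labels, -0.01 ± 0.13 with the exchange and -0.16 ± 0.12 without R02046. Each had an adjusted p of 0.878 with the deposited labels.

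The remaining 11 sterol synthesis genes had log2 fold changes between -0.16 and 0.19 with the deposited labels, between -0.17 and 0.27 with the exchange and between -0.21 and 0.20 without R02046. HMGCS1, which makes HMG-CoA, was higher in all 4 donors by 0.07, 0.18, 0.13 and 0.22, with a fitted value of 0.15 ± 0.09 (SE). FDFT1, which joins farnesyl units into squalene, and SQLE, which oxidizes squalene, were at -0.01 and 0.11. FDFT1 was 0.27 ± 0.11 with the exchange, with an unadjusted p of 0.0418. SQLE was higher by 0.77 in R14143 and level or lower in the other pairs. IDI1 and FDPS, which make and join isoprene units, were at -0.15 and -0.12, and MVK, the mevalonate kinase, was at 0.19. The late enzymes that trim lanosterol toward cholesterol, MSMO1, NSDHL, HSD17B7, SC5D and DHCR7, lay between -0.16 and 0.02. No sterol synthesis gene was called in any fit that was run, with either assignment.

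With uLPS alone, donors spanned 1.18-fold to 7.74-fold for fatty acid synthesis genes and 1.25-fold to 3.65-fold for sterol synthesis genes. SCD, the desaturase that makes oleate, stood at 31.6, 83.3, 23.6 and 22.7 CPM with uLPS and at 48.9, 88.7, 10.1 and 15.9 CPM with uLPS+MRS2578. It was higher in the males, by 0.63 and 0.09 on the log2 scale, and lower in the females as labelled, by -1.22 and -0.51. The log2 fold change was -0.22 ± 0.28 (SE) with the deposited labels (adjusted p = 0.931), 0.33 ± 0.24 with the exchange (adjusted p = 0.543) and 0.09 ± 0.22 without R02046 (adjusted p = 0.901).

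ELOVL6, which elongates palmitate, stood at 11.7, 6.70, 22.4 and 2.90 CPM with uLPS and at 12.3, 13.6, 12.1 and 9.73 CPM with uLPS+MRS2578. With uLPS the donors spanned 7.74-fold, and the 4 libraries with MRS2578 lay within that span. R12016 and R14143 were 2.03-fold and 3.36-fold higher, R07110 was level and R02046 as labelled was at 0.538. The log2 fold change was 0.44 ± 0.40 (SE) with the deposited labels (adjusted p = 0.906), 0.85 ± 0.25 with the exchange (adjusted p = 0.153) and 0.86 ± 0.32 without R02046 (adjusted p = 0.336). With the exchange, the likelihood ratio test (adjusted p = 0.0229) and DESeq2 (adjusted p = 0.0266) called it, and its adjusted p ran up to 0.894.

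FADS2, the first desaturase of polyunsaturated fatty acids, stood at 13.8, 18.3, 4.38 and 11.6 CPM with uLPS and at 15.3, 15.4, 4.10 and 5.09 CPM with uLPS+MRS2578. R14143 alone was far lower, by 1.17 on the log2 scale, and the log2 fold change was -0.34 ± 0.24 (SE) with the deposited labels, -0.30 ± 0.23 with the exchange and -0.38 ± 0.26 without R02046. FADS1, a related desaturase gene near it on chromosome 14, was at -0.10 ± 0.10 (SE) with the deposited labels. FASN, ACACA and ACLY, which make fatty acids from citrate-derived acetyl-CoA, were at 0.07, 0.18 and 0.08, and ELOVL5, a polyunsaturated fatty acid elongase, at 0.15. These 5 lay between -0.10 and 0.17 with the exchange and between -0.08 and 0.21 without R02046.

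**Figure D4:**
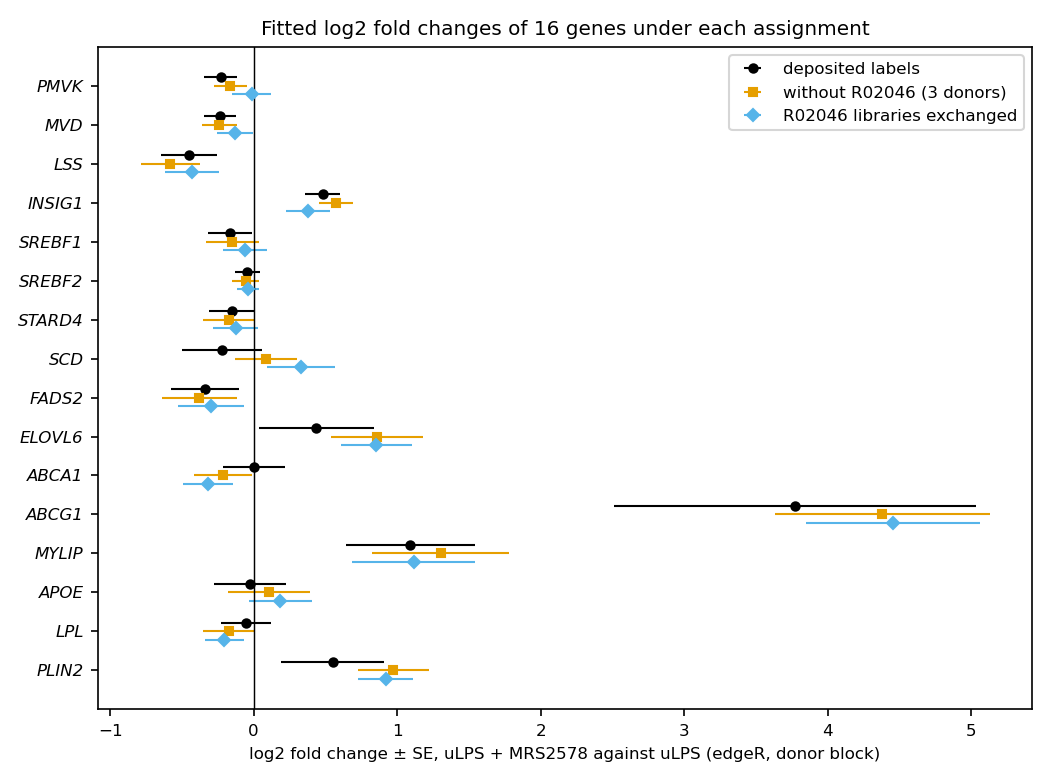
Fitted log2 fold change (edgeR, donor block) with its standard error for 16 genes, with the deposited labels, without R02046 and with the R02046 libraries exchanged. ABCG1 is at 3.78, 4.38 and 4.46 and PLIN2 at 0.55, 0.97 and 0.92, while SREBF2 stays at -0.04, -0.06 and -0.04.

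Levels with uLPS alone were scaled to the joint length of all annotated RefSeq exons of a gene. PLIN2 and HSD17B7 had no annotated length and are not ranked. Per kilobase, APOE (406 CPM per kb) and LPL (357 CPM per kb) led the 33 genes with an annotated length, followed by INSIG1 (68.6), ACLY (43.9) and NR1H2 (32.6). MYLIP (1.27), NR1H3 (0.299) and ABCG1 (0.115) were the lowest. ABCG1, with the widest difference of the list, was thus the lowest of the 33 per kilobase of this length. Without scaling to length, NR1H3 had the lower mean with uLPS, 0.997 against 1.18 CPM. In bulk RNA, more cells with a transcript and more transcript per cell cannot be told apart.

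Other genes of sterol and lipid metabolism gave no call with the deposited labels. Of 58 listed, 55 were in the files and 50 were tested, and 0 passed an adjusted p of 0.05 in the quasi-likelihood fit under the deposited labels, under the exchange or without R02046. At an unadjusted p of 0.05 with the deposited labels, 2 were higher (CPT1A and LPIN2) and 1 lower (CH25H), beside 5.14% of all genes. With the exchange, 5 were higher and 7 lower, beside 16.4% of all genes. The likelihood ratio test and DESeq2 each called 4 of the 50 with the exchange, CH25H, SMPDL3A, G0S2 and MGLL, all lower, beside 5.08% and 4.81% of all genes.

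CH25H makes the oxysterol 25-hydroxycholesterol, a ligand of the liver X receptors. It stood at 148, 216, 59.5 and 175 CPM with uLPS and at 89.1, 81.1, 75.8 and 112 CPM with uLPS+MRS2578. R07110, R12016 and R14143 were lower, at 0.604, 0.376 and 0.638 of their uLPS libraries, and R02046 as labelled was 1.27-fold higher. The log2 fold change was -0.62 ± 0.26 (SE) with the deposited labels (adjusted p = 0.878), -0.79 ± 0.16 with the exchange (adjusted p = 0.0748) and -0.93 ± 0.17 without R02046 (adjusted p = 0.156).

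CPT1A, which admits fatty acids to mitochondria for oxidation, was higher in all 4 donors, by 0.40, 1.01, 0.04 and 0.74 on the log2 scale. It stood at 71.7, 32.8, 115.8 and 61.2 CPM with uLPS and at 94.95, 66.3, 119 and 102 CPM with uLPS+MRS2578, so that the ranges overlapped. Its log2 fold change was 0.55 ± 0.16 (SE) with the deposited labels (adjusted p = 0.878) and 0.53 ± 0.16 with the exchange (adjusted p = 0.169), and 0.71 ± 0.14 without R02046 (adjusted p = 0.160). LPIN2, a phosphatidate phosphatase of glycerolipid synthesis, was also higher in all 4 donors, by 0.12 to 0.39. In the fit it was at 0.23 ± 0.09 (SE) as labelled (adjusted p = 0.878), 0.17 ± 0.10 with the exchange (adjusted p = 0.464) and 0.26 ± 0.10 without R02046 (adjusted p = 0.350).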

How the data were processed

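Poly(A) RNA of cultured macaque microglia was sequenced in 8 libraries, 1 per donor and condition. The authors deposited whole-number read counts per Ensembl gene, without normalization. The labels name Trimmomatic 0.30, TopHat2 2.0.14, SAMtools 1.3 and HTSeq 0.6.1p1 and the study's methods name fastp 0.20, STAR 2.5.4, SAMtools 1.10 and HTSeq 0.11.0, with Mmul_10 in both, so which set made the counts is not settled. Neither the annotation release nor whether counting used strand is given in the sources used here, so genes that overlap on opposite strands have uncertain counts, and reads with more than 1 position were not counted. M-CSF is 10 ng/mL in the labels and another dose in the study's methods.

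The counts were analyzed in R 4.3.3 with edgeR 4.0.16, limma 3.58.1 and DESeq2 1.42.0. Genes were kept by filterByExpr (minimum count 10), TMM factors scaled the libraries, and MRS2578 was tested over all genes by the quasi-likelihood F-test of edgeR, with donors as blocks and p-values adjusted by Benjamini-Hochberg. Each SE was derived from the F statistic. CPM values use the TMM factors, and their log2 values a prior count of 2. The donor block rests on libraries of 1 animal. After the mean of each condition was subtracted, the libraries of R07110, R12016, R02046 and R14143 correlated within the donor at 0.602, 0.552, 0.458 and 0.562 over genes. No pair of libraries was a duplicate, as the chi-square per degree of freedom was at least 17.7. The test was tried on simulated counts.

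The genes and lists were chosen with earlier results of these data known. Values in each library are given for genes with an adjusted p under 0.05 in either assignment, the 3 genes of each group with the largest log2 fold change, and SREBF1, SREBF2, INSIG1, ABCA1, ABCG1, MYLIP, APOE, LPL and PLIN2. Other pathway genes are named at an unadjusted p under 0.05 with the deposited labels. G0S2, MGLL and SMPDL3A were named after their values were seen. Positions and promoter windows come from the RefSeq annotation of Mmul_10, which had 35 of the 38 genes. Columns of the study's own comparisons were not used. Alternatives were other scalings, filters and tests, no donor block, each donor left out, and the R02046 libraries exchanged. edgeR's earlier quasi-likelihood estimation was chosen after seeing the data.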

Additional observations from a re-analysis of the deposited data

Results flagged for a closer look

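In 5 of 70 groups of 4 libraries (35 genes in each of the conditions, deposited labels), 1 library stood apart from the other 3 by Dixon's criterion at 0.829. Chance alone marks about 5% of such groups. SCD was at 83.3 CPM with uLPS in R12016, where the other donors lay between 22.7 and 31.6 CPM. APOE was at 839.8 CPM with uLPS+MRS2578 in R12016, where the others lay between 309 and 381 CPM. HSD17B7 was at 15.4 CPM with uLPS+MRS2578 in R12016, against 11.2 to 11.6 CPM. FDPS was at 29.9 CPM with uLPS+MRS2578 in R14143, against 39.7 to 41.2 CPM, and ACLY was at 240.05 CPM in the same library, against 202 to 208 CPM. The high values of R12016 for SCD and the low value of R14143 for FDPS were present in both libraries of these donors, with 88.7 CPM for SCD with uLPS+MRS2578 and 29.4 CPM for FDPS with uLPS.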

How the results depend on the processing

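With the deposited labels, 0 genes were called by the quasi-likelihood test (624 had an unadjusted p under 0.05), also without each donor and without the replicate block, 1 by DESeq2 and 5 by the likelihood ratio test. With R02046 exchanged the counts were 75, 583 with DESeq2, 616 with the likelihood ratio test, 39 with the earlier quasi-likelihood estimation, 0 without the replicate block, and 0, 5 and 918 without R07110, R12016 and R14143. The listed genes called were 0 with the deposited labels in every fit, and with the exchange 1 (ABCG1), 3 with DESeq2 and 3 with the likelihood ratio test (ABCG1, PLIN2 and ELOVL6), 4 without R14143 (ABCG1, MYLIP, APOE and PLIN2) and 0 without the replicate block, with the earlier estimation, or without R07110 or R12016. The causes were not tested.

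The median of sterol synthesis genes moved from -0.12 with the deposited labels to 0.0019 with the exchange. Under the exchange it was 0.00039 with the likelihood ratio test, -0.0065 with DESeq2, -0.0019 without the replicate block, -0.00027 with the earlier estimation, and 0.021, 0.0020 and 0.014 without R07110, R12016 and R14143. That of sterol regulators ran from -0.056 to 0.033 over the donors left out, and with the exchange it was -0.0010 without R12016 and 0.0010 without R14143. That of fatty acid genes was -0.046 with DESeq2 and -0.050 without the replicate block under the exchange, and that of efflux and storage genes 0.36 with DESeq2 and 0.44 without R14143. Without TMM scaling, the medians of all genes shifted to 0.06, 0.14, -0.05 and 0.04 in R07110, R12016, R02046 and R14143. In the same order, those of sterol synthesis genes became 0.01, 0.04, -0.20 and 0.07, a change of sign in both males. Those of efflux and storage genes became 0.60, 0.43, -0.30 and 0.10.

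Of the recomputed values of named genes, 252 kept their direction and side of the threshold, 10 passed it under an alternative and 41, of 7 genes, changed sign. Leaving out each donor in turn gave -0.27 to 0.010 for SREBF1, -0.26 to 0.033 for STARD4, -0.53 to 0.086 for SCD, -0.21 to 0.27 for ABCA1, -0.30 to 0.22 for APOE and -0.17 to 0.11 for LPL. With the exchange PMVK was 0.011 without the replicate block, 0.026 without R12016 and 0.081 without R14143, SREBF1 was 0.15 without R14143, and STARD4 was 0.078 without R12016. SCD was 0.022 without the replicate block with the deposited labels. With the exchange it was 0.33, 0.35 with the likelihood ratio test, 0.34 with DESeq2, 0.27 without the block, 0.33 with the earlier estimation, and 0.22, 0.42 and 0.59 without R07110, R12016 and R14143. ABCA1 was -0.00096 with DESeq2 size factors, -0.014 without a filter, -0.28 without the replicate block and -0.0027 with the earlier estimation. With the exchange it was -0.32, -0.32 with the likelihood ratio test, -0.33 with DESeq2, -0.44 without the block, -0.32 with the earlier estimation, and -0.52, -0.14 and -0.39 without R07110, R12016 and R14143. APOE with the exchange was 0.19, 0.19 with the likelihood ratio test, 0.18 with DESeq2, 0.16 without the block, 0.19 with the earlier estimation, and 0.16 and 0.49 without R12016 and R14143, the last with an adjusted p of 0.0419. Depth limits NR1H3 most, with 34 counts at most.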
